A study of Mus musculus with 9 samples.

Results

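The genes described here are 10 members of the machinery of cell adhesion and epithelial-mesenchymal transition: Cdh1, Cdh2, Epcam, Vim, Snai1, Snai2, Zeb1, Zeb2, Icam1 and Pecam1. They were taken by symbol, as every probe set whose only annotated gene is 1 of these 10, out of 18194 genes and 45101 probe sets on the array. This gave 22 probe sets, of which 16 were bright enough to be tested and at least 1 stood for each gene. The other 6, of Snai2, Zeb1 and Zeb2, did not exceed a signal of 12.5 on any array and were not tested.

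RNA of D3-pOct4 mouse embryonic stem cells was hybridized to 9 Affymetrix expression arrays, 1 culture condition and passage an array. All cultures were kept for 7 days in DMEM with fetal bovine serum. In the LIF group, leukemia inhibitory factor (LIF) was present at 1000 U/ml, a cytokine that sustains self-renewal through STAT3. The no-LIF group had none, and the donor group had no LIF but 2 µM DETA/NO, a slow donor of nitric oxide. Each group has 3 arrays, with replicates 1, 2 and 3 from passages 31, 33 and 34. The labels name 1 cell line and do not say whether cultures of a passage were started separately, so a p-value here measures only how far these arrays differ, which may be technical.

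E-cadherin (Cdh1) and N-cadherin (Cdh2) are calcium-dependent adhesion molecules that bind their own kind on the neighbouring cell. In a cadherin switch, an epithelial cell loses the first and gains the second, a change driven in many tissues by the repressors Snai1, Snai2, Zeb1 and Zeb2, which bind E-box sequences, and often accompanied by the intermediate filament protein vimentin (Vim). Naive mouse embryonic stem cells grow in compact, E-cadherin-rich colonies. N-cadherin, Epcam, an epithelial adhesion protein, and the immunoglobulin-family proteins Icam1 and Pecam1 have all been described in pluripotent cells. The comparison asked of these genes was whether a cadherin switch goes with the loss of naive markers.

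Before the groups were compared, Socs3, a direct STAT3 target, was read on each array as a check of the LIF labels. Its signal was 3213, 282 and 1794 in LIF replicates 1 to 3, 102, 3054 and 330 in no-LIF replicates 1 to 3, and 95.8, 405 and 127 in donor replicates 1 to 3. The array labelled LIF replicate 2 was thus low and the array labelled no-LIF replicate 2 high, against their labels. No-LIF replicate 1 and donor replicate 3 were the most alike pair of all arrays (r = 0.977 over tested probe sets), closer than any pair inside a group. Median signals were 20.8 to 23.3 on 3 brighter arrays (LIF replicate 1, donor replicates 1 and 2) and 13.9 to 17.8 on the other 6. Markers of embryonic stem cells were present throughout, with all 8 of 8 tested and a summed signal of 14050 to 25580. Of 8 fibroblast markers 3 were tested, and their sum was 50.8 to 131 on the 9 arrays.

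Icam1 and Epcam are shown with their promoters because one followed the naive markers across arrays and the other did not, as described below. RefSeq promoter windows of 250 bases before to 50 after a start were read for 5 of the 10 genes. These were Epcam, Icam1, Snai1, Vim and Zeb2. Windows of the other genes, Cdh2 and Zeb1 among them, are not described here, so nothing is said of their motifs. The windows below are from GRCm38.p6, 5′ to 3′, at chr9:21015690-21015989 on the + strand for Icam1 and chr17:87635729-87636028 on the + strand for Epcam. Capitals mark matches to the STAT motif TTCNNNGAA, which reads the same on both strands, and to the E-box CAGGTG on either strand (CACCTG on the other). The motifs do not overlap each other.
Icam1: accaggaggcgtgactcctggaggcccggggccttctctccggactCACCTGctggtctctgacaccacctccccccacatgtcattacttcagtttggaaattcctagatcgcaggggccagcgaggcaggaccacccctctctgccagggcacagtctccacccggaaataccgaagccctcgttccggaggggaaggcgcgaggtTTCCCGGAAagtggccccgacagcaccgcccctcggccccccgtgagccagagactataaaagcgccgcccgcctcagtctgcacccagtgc
Epcam: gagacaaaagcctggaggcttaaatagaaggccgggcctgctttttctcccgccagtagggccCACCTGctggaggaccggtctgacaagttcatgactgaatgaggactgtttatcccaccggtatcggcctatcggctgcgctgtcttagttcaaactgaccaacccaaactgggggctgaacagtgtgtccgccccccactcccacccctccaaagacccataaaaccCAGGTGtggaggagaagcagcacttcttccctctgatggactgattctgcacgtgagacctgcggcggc
The Icam1 window holds 1 STAT match, TTCCCGGAA, whose first base lies at -42 from the start, and 1 E-box at -204. The Epcam window holds 2 E-boxes, at -187 and -19, and no STAT match. Zeb2, which did not follow the naive markers (r = 0.088), has windows at several starts. Windows of neighbouring starts share a STAT match, TTCTGTGAA, at -173 or -147. The windows of its other starts, at chr2:45110228-45110527 and chr2:45117393-45117692, hold none. The link of the motif to the naive markers was not tested. Among 32851 RefSeq promoter windows of the same length, 8.30% hold the STAT motif and 20.2% the E-box, and a match says only that these letters are present.

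Of the 16 tested probe sets of these genes, 0 passed the test in any of the 3 comparisons at an adjusted p of 0.05 (limma over 29811 probe sets, Benjamini-Hochberg). The background was the same, with 0.0% of all tested probe sets called in each comparison. Without adjustment, limma's p was under 0.05 for 0 of the 16 between no LIF and LIF, for 1 between donor and no LIF, and for 0 between donor and LIF. Over all probe sets that share was 1.54%, 5.02% and 1.94%. Groups did not overlap for 1, 1 and 0 of the 16, against 7.6%, 8.92% and 5.98% of all probe sets. The comparisons use the same arrays and are not independent.

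Differences below are on the scale of log2(signal + 3), which understates changes of dim genes. Their median over the 16 probe sets was -0.30 for no LIF against LIF, 0.02 for donor against no LIF and -0.15 for donor against LIF. Over all tested probe sets the medians were -0.10, 0.08 and 0.02. Centring each array on its median moved these to 0.15, -0.21 and -0.02, and the share of probe sets higher without LIF than with it from 42.7% to 60.4%. Small differences of either sign therefore depend on the scaling.

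**Figure D1:**
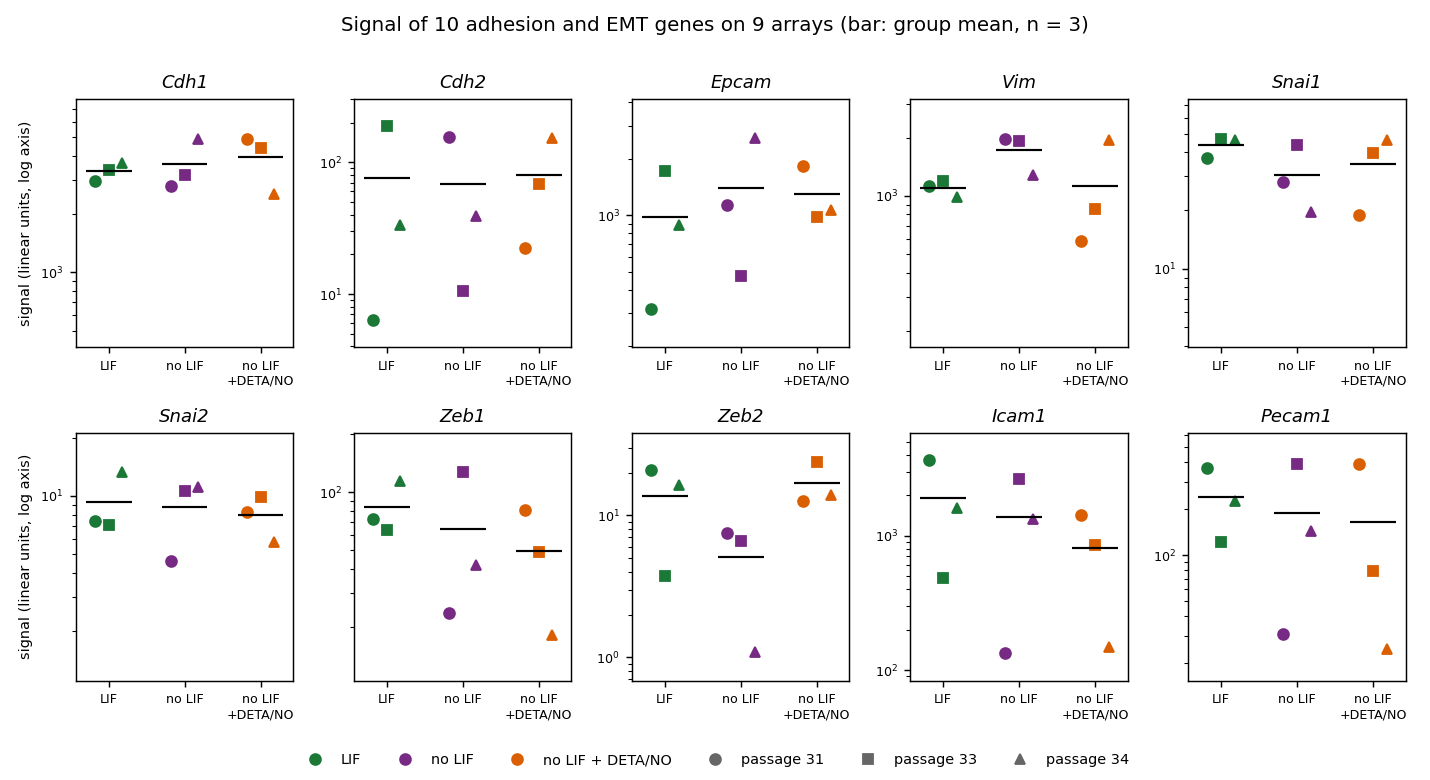
Signal of each gene's brightest tested probe set on the 9 arrays (log axis, linear signal units), by group, with marker shape for the passage and a bar for the mean of 3 arrays. Cdh1 stays between 2550 and 4911, while Cdh2, Icam1 and Pecam1 spread widely inside every group.

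Cdh1, the cadherin of the naive colony, was bright and even in all conditions. Its signal was 2978, 3371 and 3680 with LIF, 2803, 3186 and 4896 without it, and 4911, 4389 and 2550 with the donor. The groups overlapped, and the highest array was 1.93 times the lowest. The beta-actin 3′ to 5′ signal ratio, a control for RNA quality, was lowest where Cdh1 was lowest (no-LIF replicate 1, 1.52, and donor replicate 3, 1.62). It was highest where Cdh1 was highest (donor replicates 1 and 2, 2.43 and 2.68, and no-LIF replicate 3, 3.15). The part of RNA quality in the Cdh1 signal was not tested. The means were 3343 ± 352 with LIF, 3628 ± 1114 without and 3950 ± 1240 with the donor (SD, n = 3 each). Cdh1's SD over the 9 arrays, 0.35 on the log2 scale, exceeded that of 16.02% of genes tested. The difference of no LIF against LIF was 0.08 (95% interval -0.62 to 0.78), and that of donor against LIF was 0.19 (-0.51 to 0.89), the first turning to -0.19 with quantile normalization. A change of 1 on the log2 scale in either direction therefore lies outside both intervals, which hold only for these arrays grouped as labelled.

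Cdh2 varied widely between the arrays of every group. The brighter of its 2 probe sets read 6.30, 188 and 33.2 with LIF, 156, 10.5 and 39.2 without it, and 22.4, 67.9 and 152 with the donor. Each group held a low and a high array. The lowest, LIF replicate 1, lay below its array's 40th percentile of 14.6, so it gives only an upper limit, and no-LIF replicate 2 lay just above its own of 9.69. The means were 75.8 ± 97.95, 68.5 ± 76.9 and 80.6 ± 65.5 (SD, n = 3 each). Its SD over the 9 arrays, 1.58 on the log2(signal + 3) scale, was larger than that of 98.99% of genes tested. The second probe set read 12.4, 62.0 and 15.5 with LIF, 56.9, 7.10 and 7.48 without it, and 11.9, 30.4 and 45.4 with the donor, and followed the first (r = 0.883 over 9 arrays). It passed the 40th percentile on 5 of 9 arrays.

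The Cdh2 difference of no LIF against LIF was 0.16 (SE 1.15, 95% interval -2.37 to 2.70). Within passages it was 4.09 in passage 31, -3.82 in passage 33 and 0.22 in passage 34. The donor against no LIF gave 0.54 (SE 1.15, interval -1.99 to 3.07), with -2.64, 2.39 and 1.87 in the 3 passages. Passage 33 holds both arrays that went against their Socs3 labels. Without those arrays, no LIF against LIF was 2.16 (limma's adjusted p = 0.553), donor against LIF moved from 0.70 to 1.83, and donor against no LIF was -0.33. Without the alike pair no LIF against LIF was -0.75, and with array brightness as a block donor against no LIF was 2.22 (limma's adjusted p = 0.927). The direction and size of the Cdh2 differences thus depend on which arrays are kept, and the intervals allow a change of several-fold either way.

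Epcam, the epithelial surface protein, read 317, 1728 and 887 with LIF, 1128, 472 and 2589 without it, and 1825, 980 and 1061 with the donor. The lowest arrays were LIF replicate 1 and no-LIF replicate 2, and the groups overlapped. The difference of no LIF against LIF was 0.50 (SE 0.68) and that of donor against LIF 0.65 (SE 0.68). The first turned to -0.15 without LIF replicate 1 and to -0.11 without no-LIF replicate 3, and was 1.68 without both arrays that went against Socs3. Its second probe set ran alongside (r = 0.871).

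Vim read 1126, 1191 and 987 with LIF, 1973, 1925 and 1284 without it, and 582, 858 and 1943 with the donor. The no-LIF arrays all lay above the LIF arrays, while the donor group spanned both. The means were 1102 ± 104, 1727 ± 385 and 1128 ± 719 (SD, n = 3 each). The difference of no LIF against LIF was 0.63 (SE 0.42, 95% interval -0.30 to 1.55), higher in 3 of 3 passages, with limma's adjusted p = 0.973. The other 2 Vim probe sets were also higher in 3 of 3 passages, with overlapping groups, and the 3 agreed across arrays (r = 0.947 to 0.981). The donor against no LIF gave -0.77 (SE 0.42), lower in passages 31 and 33 and higher in passage 34. Across arrays Vim ran against Cdh1 (r = -0.758), the 164th most negative of 13375 genes set against Cdh1. The beta-actin 3′ to 5′ ratio was lowest where Vim was highest (no-LIF replicate 1, 1.52, and donor replicate 3, 1.62). It was 2.43 and 2.68 on donor replicates 1 and 2, where Vim was lowest. On no-LIF replicate 3, with Vim at 1284, it was highest (3.15). The part of RNA quality in this relation was not tested.

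**Figure D2:**
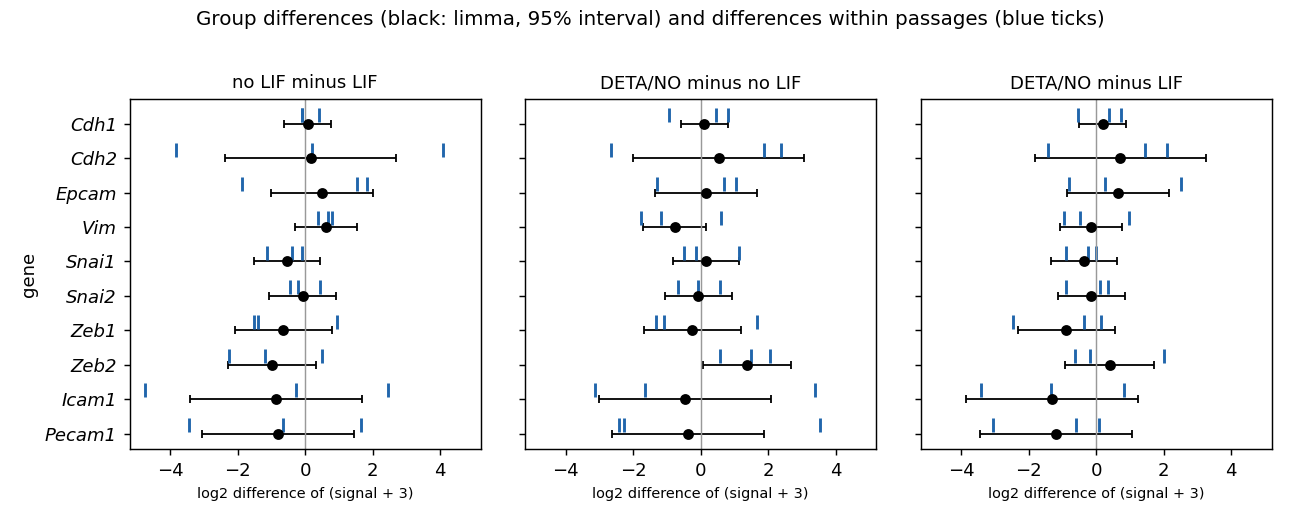
Log2 differences of (signal + 3) between groups for each gene, with 95% limma intervals (black) and the differences inside each passage (blue ticks). All intervals cross 0 except that of Zeb2 for donor against no LIF. There the no-LIF signals and that of donor replicate 1 lie below the 40th percentile of their arrays. The ticks of Cdh2, Icam1 and Pecam1 lie on both sides of 0.

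Of the repressors of Cdh1, Snai2 and Zeb2 lay near or below the 40th percentile on most arrays. The brightest probe sets of Snai1 and Zeb1 reached it on 9 of 9 arrays. Snai1 read 37.4, 47.0 and 46.1 with LIF, 27.9, 43.8 and 19.6 without it, and 18.9, 39.6 and 46.4 with the donor. It was lower without LIF than with it in 3 of 3 passages (difference -0.54, SE 0.44, limma's adjusted p = 0.973), but the groups overlapped. Snai2's tested probe set lay between 4.62 and 13.2 on all arrays, beside a 40th percentile of the arrays of 8.17 to 14.6. No order of the conditions can be read at that level.

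Zeb1 read 72.9, 63.8 and 114 with LIF, 23.6, 127 and 41.8 without it, and 81.2, 48.7 and 18.3 with the donor. The lowest arrays were donor replicate 3 and no-LIF replicate 1, and the groups overlapped. Its other 2 tested probe sets followed this one only in part (r = 0.429 and 0.626), so statements on Zeb1 hold for the brightest probe set. The donor against LIF gave -0.89 (SE 0.65).

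Zeb2's tested probe set read 21.1, 3.74 and 16.3 with LIF, 7.54, 6.57 and 1.09 without it, and 12.6, 24.0 and 14.0 with the donor. The donor arrays all lay above the no-LIF arrays, and the LIF arrays spanned both. None of the no-LIF arrays reached its 40th percentile (8.17, 9.69 and 9.35), so there is no measured level to set the donor group against. Donor replicate 1, at 12.6, also lay below its own of 13.3. The fitted difference of donor against no LIF was 1.37 (SE 0.59, limma's adjusted p = 0.929), higher in 3 of 3 passages, and it depends on the pseudocount, being 1.74 with 1 and 0.64 with 16. It was the only 1 of the 16 probe sets with an unadjusted p under 0.05. The probe set passed the 40th percentile on 4 of 9 arrays, and Zeb2's other 4 probe sets were too dim to be tested.

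Icam1, a ligand of leukocyte integrins, varied widely too, and ran against Cdh2. It read 3652, 483 and 1605 with LIF, 133, 2649 and 1322 without it, and 1430, 848 and 149 with the donor. No-LIF replicate 1 and donor replicate 3 were lowest, LIF replicate 1 and no-LIF replicate 2 highest. The no-LIF difference from LIF was -0.86 (SE 1.15), made of -4.75, 2.45 and -0.28 in passages 31, 33 and 34, and turned to 0.40 without no-LIF replicate 1. Without both arrays that went against Socs3 it was -2.51 (limma's adjusted p = 0.553), and donor against LIF was -2.09. The donor against LIF gave -1.32 (SE 1.15, 95% interval -3.86 to 1.23).

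Pecam1, a homophilic adhesion protein of endothelium that embryonic stem cells also carry, read 366, 121 and 225 with LIF, 30.7, 388 and 143 without it, and 390, 78.3 and 24.4 with the donor. The same arrays as for Icam1 were lowest, and donor replicate 1 and no-LIF replicate 2 were highest. The no-LIF difference from LIF was -0.81 (SE 1.02). It turned to 0.13 without no-LIF replicate 1 and was -2.05 without both arrays that went against Socs3 (limma's adjusted p = 0.553). The donor against LIF gave -1.19 (SE 1.02, 95% interval -3.44 to 1.06). Endothelial markers were dim on all arrays, with a summed signal over 7 tested genes of 140 to 273 with LIF, 73.2 to 195 without and 60.2 to 292 with the donor. Of these, Cdh5 and Tie1 followed the naive markers at an adjusted exact permutation p of 0.0315 and 0.0266. Over all genes 11.3% were called by that test. Cdh5 read 0.97 and 3.84, and Tie1 0.37 and 0.34, on no-LIF replicate 1 and donor replicate 3, the alike pair. Median signals of those arrays were 13.9 and 15.0. Without the pair r was 0.675 for Cdh5 and 0.887 for Tie1, neither called (adjusted exact permutation p = 0.446 and 0.278). Over the list, r ran from -0.337 (Kdr) to 0.918 (Tie1). The part of endothelial cells in the Pecam1 signal was not tested.

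The naive state was read as the mean log2(signal + 3) of 14 genes, among them Klf4, Esrrb, Tfcp2l1, Tbx3 and Nanog. This mean was 9.53, 8.54 and 9.08 in LIF replicates 1 to 3, 7.35, 9.44 and 8.55 in no-LIF replicates 1 to 3, and 9.14, 8.18 and 7.48 in donor replicates 1 to 3. It was lowest on no-LIF replicate 1 and donor replicate 3, the alike pair, and highest on LIF replicate 1 and no-LIF replicate 2. The alike pair also had the lowest beta-actin 3′ to 5′ ratios, 1.52 and 1.62, against 1.81 to 3.15 on the other arrays. The part of RNA quality in the naive mean, and in the correlations with it, was not tested. Not every gene of the list fell on that pair. Nanog read 962 and 896 there, against 1120, 669 and 539 with LIF. Zfp42 read 1434 and 1204, against 1181, 2014 and 2187 with LIF. Klf4, at 197 and 233, and Tbx3, at 2.45 and 10.8, had their lowest signals there. A low naive mean is therefore a loss of part of these markers. The genes were not scaled before averaging, so those of wide range weigh more. Tbx3 had the widest range, up to 1758 on LIF replicate 1. Its lowest signal, on no-LIF replicate 1, lay below that array's 40th percentile of 8.17. The groups overlapped in the naive mean, so the question of a cadherin switch was put to the arrays rather than to the groups. In these bulk samples, fewer cells of a kind and less RNA per cell cannot be told apart.

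Each gene was correlated with the naive mean over the 9 arrays by an exact permutation test, two-sided, adjusted over all 13362 genes outside the naive list. By this test 11.3% of all genes were called, 807 with and 700 against the naive mean, and 33.9% had an unadjusted p under 0.05. With the alike pair left out 0 of all genes were called by the same exact permutation test and 13.7% had an unadjusted p under 0.05, so no call below holds without that pair. With 7 arrays the smallest exact p is 1.98e-04, so the adjusted p-values there are also limited by the number of arrays. Leaving out LIF replicate 1 alone also left 0 calls (25.5% unadjusted), and leaving out no-LIF replicate 1 or donor replicate 3 alone left 8 each. Of the 10 genes, 4 were called: Pecam1, Icam1 and Zeb1 with the naive mean and Cdh2 against it. The other 6 did not pass.

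Cdh1 did not follow the naive markers in a way the test could call (r = 0.327, exact permutation p = 0.381, adjusted 0.542; Spearman's rho = 0.3, exact p = 0.437). On the pair of arrays lowest in naive markers Cdh1 read 2803 and 2550, its lowest signals. Without that pair, which is also the pair farthest from the median naive mean, r turned to -0.548 (adjusted exact permutation p = 0.557).

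Cdh2 was higher where naive markers were lower (r = -0.871, exact permutation p = 0.00299, adjusted 0.0391; rho = -0.900, exact p = 0.00203). Of the 14 naive genes, 13 had a negative r with Cdh2, from -0.067 for Zfp42 to -0.930 for Prdm14. Dppa3 had a positive one, and 47.7% of all genes had a negative r with Cdh2. In passage 31 the naive mean ran, from high to low, in the order LIF, donor, no LIF (9.53, 9.14, 7.35) and the Cdh2 signal was 6.30, 22.4 and 156 in that order. In passage 34 the order was LIF, no LIF, donor (9.08, 8.55, 7.48), with Cdh2 at 33.2, 39.2 and 152. In passage 33 the no-LIF array was highest in naive markers (9.44) with Cdh2 at 10.5, and Cdh2 was 188 on the LIF array (8.54) and 67.9 on the donor array (8.18).

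The Cdh2 relation kept its sign when arrays were left out, but not its call. With 1 array left out, r ran from -0.973 to -0.840 and the adjusted exact permutation p from 0.0195 to 0.113. The call was kept without LIF replicate 2 or donor replicate 2. It was lost without LIF replicate 1 or 3, any of the 3 no-LIF arrays, or donor replicate 1 or 3. Without the alike pair r was -0.842 (exact permutation p = 0.0161, adjusted 0.285), and on the 6 dimmer arrays -0.820 (exact p = 0.0625, adjusted 0.197). With each array centred on its median, r was -0.761 (exact p = 0.0189, adjusted 0.168). Without both arrays that went against Socs3, r was -0.968 (adjusted exact permutation p = 0.0439).

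**Figure D3:**
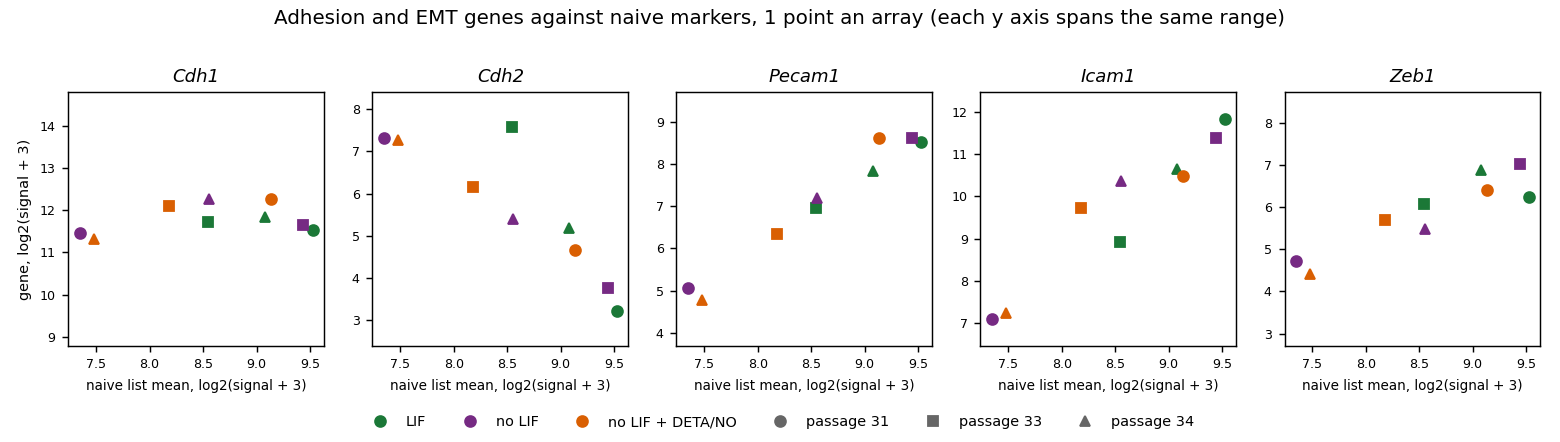
Log2(signal + 3) of 5 genes against the mean of 14 naive genes, 1 point an array, coloured by group and shaped by passage, with y axes of equal span. Cdh2 slopes down (r = -0.871), Pecam1, Icam1 and Zeb1 slope up, and Cdh1 is flat by comparison (r = 0.327).

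The 2 cadherins showed no opposed course that the test could call. Across the 9 arrays Cdh1 and Cdh2 gave r = -0.232 (exact permutation p = 0.537) and rho = -0.217 (exact p = 0.581). Without the arrays farthest from the median of Cdh1, donor replicate 1 and no-LIF replicate 3, r was -0.116, and without the alike pair it was 0.280. On the arrays labelled LIF replicate 2, no-LIF replicate 1 and donor replicate 3, where Cdh2 was 152 to 188, Cdh1 read 3371, 2803 and 2550.

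Pecam1 had the 6th highest r with the naive mean of 13362 genes (r = 0.984, exact permutation p = 8.27e-05, adjusted 0.0182; rho = 0.917). Icam1 ranked 67th (r = 0.956, exact p = 1.76e-04, adjusted 0.0197; rho = 0.967), and Zeb1 262nd (r = 0.916, exact p = 0.00102, adjusted 0.0275; rho = 0.817). Without the alike pair, r was 0.960 for Pecam1, 0.846 for Icam1 and 0.751 for Zeb1, none of them called at an adjusted p of 0.263 to 0.385 (exact permutation). With 1 array left out, Pecam1 and Icam1 each kept the call in 6 of 9 cases, losing it without LIF replicate 1, no-LIF replicate 1 or donor replicate 3. Zeb1 kept it in 5 of 9, and lost it also without no-LIF replicate 2, and for the mean of all Zeb1 probe sets (r = 0.836, adjusted exact permutation p = 0.0508). Zeb1, a Cdh1 repressor, was thus higher on arrays with more naive marker signal.

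On donor replicate 1, Socs3, at 95.8, was the lowest of all arrays while Pecam1, at 390, was the highest. Its Icam1 signal, 1430, lay between those of no-LIF replicate 3 (1322) and LIF replicate 3 (1605).

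Epcam (r = -0.407, exact permutation p = 0.278), Vim (r = -0.441, exact p = 0.235) and Snai2 (r = 0.632, exact p = 0.0708) were not called. Snai1 (r = -0.008, exact p = 0.982) and Zeb2 (r = 0.088, exact p = 0.824) had correlations near 0. Without the alike pair, the Vim correlation turned to 0.221 and that of Epcam was -0.658.

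**Figure D4:**
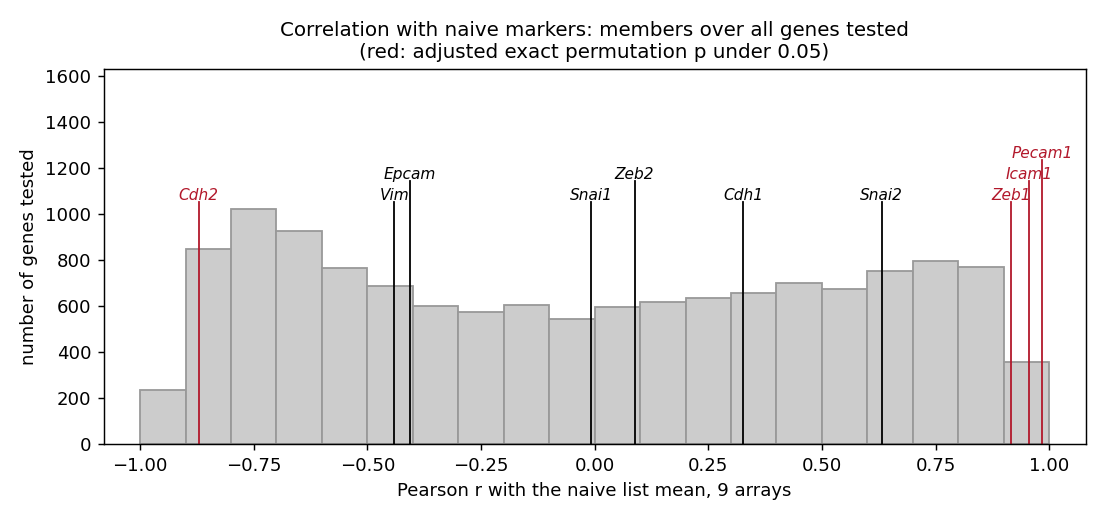
Histogram of Pearson's r with the naive mean over 13362 genes (x axis r, y axis number of genes), with lines for the 10 genes, red where the adjusted exact permutation p was under 0.05. Pecam1, Icam1 and Zeb1 lie at the right end, Cdh2 towards the left end and the other 6 between -0.441 and 0.632.

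Among the 10 genes themselves, Cdh2 ran against Icam1 (r = -0.913) and Pecam1 (r = -0.858), and Icam1 with Pecam1 (r = 0.939) over the 9 arrays. These are descriptions of shared arrays. The 5 genes most like Cdh1, among 6659 with a mean signal of at least 100, were Diaph1 (r = 0.947), Enpp3 (0.943), Adam19 (0.926), Sptan1 (0.924) and Flna (0.918). Diaph1 nucleates actin filaments, and Sptan1 and Flna bind them. The 5 most like Cdh2, among 6660, were Tdrd3 (r = 0.980), Fam13b (0.979), Trub2 (0.979), Diablo (0.977) and Lrrfip1 (0.975).

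The same reading was made of 5 wider lists, in which 0 genes were called in any of the 3 group comparisons by limma. At an unadjusted p under 0.05 each list held at most 1 gene in a comparison. The calls with or against the naive mean stand beside 11.3% of all genes called by the exact permutation test. Of 14 epiblast and primitive streak genes, 8 were called against the naive mean and 0 with it by the exact permutation test (median r = -0.888, against -0.025 over all genes). They were Fgf5, Pou3f1, Dnmt3b, Lef1, Eomes, Mixl1, Gsc and Lhx1. Several of them were high mainly on the alike pair, as Fgf5, at 521 and 567 there and at most 82.6 elsewhere. Without that pair all 8 kept a negative r, 3 of them with an exact permutation p under 0.05 before adjustment and 0 after it, and the list's median r was -0.751. Dnmt3b, a DNA methyltransferase active in the epiblast, had a signal of 255, 2062 and 1099 in the LIF group, 4360, 570 and 1915 in the no-LIF group, and 1213, 3570 and 3659 in the donor group. It was thus low on the arrays where Cdh2 was low (r = 0.899 with Cdh2).

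Of 23 junction and epithelial genes tested (24 listed), 2 were called with the naive mean and 0 against it, beside 11.3% of all genes. The 2 called were the desmosomal cadherin Dsg2 (r = 0.850, adjusted exact permutation p = 0.0445) and the protease inhibitor Spint1 (r = 0.940, adjusted exact p = 0.0212). The list's median r was -0.536 (-0.709 with the alike pair left out, where neither gene was called), and 18 of the 23 had a positive r with Cdh2. Esrp1, an epithelial splicing factor chosen here after its values were seen, read 2.39, 344 and 38.9 with LIF, 425, 9.81 and 331 without it, and 203, 333 and 411 with the donor. It was lowest on LIF replicate 1 and no-LIF replicate 2, which were highest in naive markers, and did not pass the test (r = -0.795, adjusted exact permutation p = 0.0693).

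Of 14 regulators of epithelial-mesenchymal transition tested of 18 listed, 0 were called by the exact permutation test in either direction and 1 had an unadjusted p under 0.05, against 33.9% of all genes, with a median r of 0.045. The brightest were Smad4 (r = -0.597) and Tgfbr1 (r = 0.429), both of the TGF-beta pathway. Of 17 mesenchymal and matrix genes tested of 18 listed, 3 were called, all with the naive mean, beside 11.3% of all genes. The 3 called were fibronectin, Fn1 (r = 0.879), its receptor subunit Itga5 (r = 0.960) and the matrix protein Tgfbi (r = 0.938), with adjusted exact permutation p of 0.0397, 0.0184 and 0.0215. Fn1 read 6635, 3824 and 5315 with LIF, 1216, 4654 and 4806 without it, and 5730, 5140 and 1360 with the donor. Both low values belong to the alike pair, and without it Fn1 gave r = 0.512 (exact permutation p = 0.241) and the list a median r of -0.362. Of the 8 primitive and parietal endoderm markers, a lineage rich in matrix, Lama1 was called with the naive mean (r = 0.864). The summed signal of these markers was 1438 to 8294 with LIF, 557 to 2708 without and 548 to 1592 with the donor. The part of such cells in the Fn1 signal was not tested.

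Of 11 further immunoglobulin-family adhesion genes tested of 12 listed, 6 were called with the naive mean and 0 against it, with a median r of 0.857. They were Ncam1, Jam2, Jam3, Bsg, Cd47 and Mcam, with r from 0.857 to 0.947 and adjusted exact permutation p of 0.0182 to 0.0444. When the alike pair was left out all 6 kept a positive r, 4 of them with an exact permutation p under 0.05 before adjustment and 0 after it. Jam2, a junctional adhesion molecule, read 1186, 191 and 1383 with LIF, 69.1, 1302 and 136 without it, and 346, 148 and 66.9 with the donor. Its high arrays were LIF replicates 1 and 3 and no-LIF replicate 2, the arrays with the highest Socs3 signal.

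**Figure D5:**
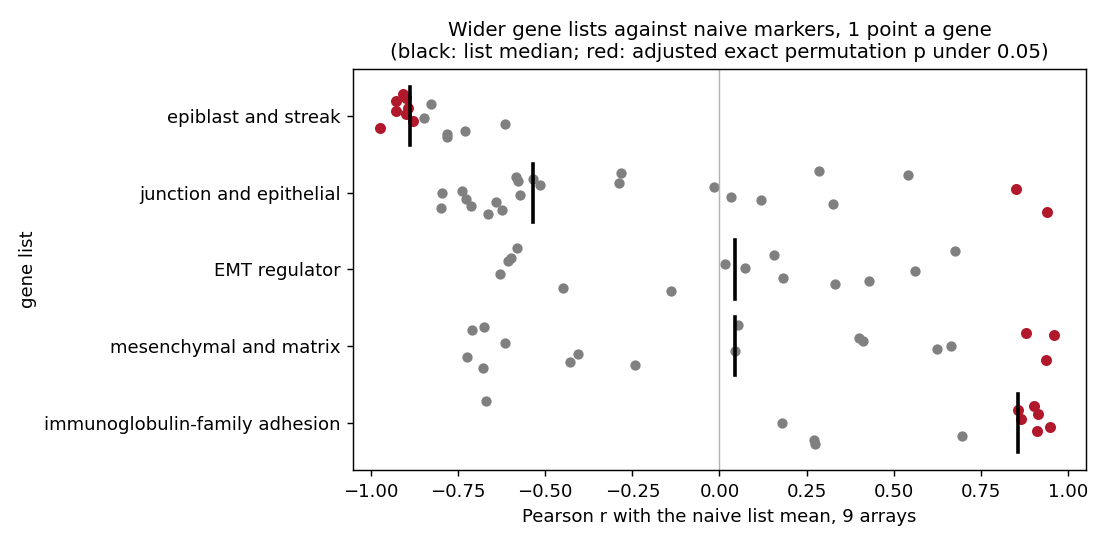
Pearson's r with the naive mean for each tested gene of 5 lists (1 point a gene; black bar, list median; red, adjusted exact permutation p under 0.05). The immunoglobulin-family genes lie to the right (median 0.857), the epiblast and streak genes to the left (median -0.888), and the regulators are centred near 0 (0.045).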

How the data were processed

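Intensities on a linear scale were deposited by the authors for 45101 probe sets; per the labels and the submitters' processing notes they came from GeneChip Operating System 1.4.0.036 with global scaling, and the notes name MAS5. Signals were turned to log2(signal + 3) with no further normalization. A probe set was tested if on 3 or more of the 9 arrays it reached that array's 40th percentile, which left 29811 and 13376 genes after 64 control probe sets were set aside. Genes were named from the platform annotation where a probe set had 1 symbol (34945; 932 had several and 9160 none), and the brightest tested probe set stood for a gene.

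Groups were compared with limma (version 3.58.1, under R 4.3.3; eBayes with a trend on intensity, two-sided) in a single fit of the 9 arrays, adjusted by Benjamini-Hochberg at 0.05. Correlations with the naive mean used exact permutation of pairings (numpy 2.4.6), adjusted over 13362 genes rather than over the 10 genes as first planned. The code of the fit and of the correlation was run on simulated data with planted effects. That check asked only for recovery of large changes at a reduced spread and of very close correlations. It gives no measure of what the tests can find in these arrays. The number of arrays limits the precision.

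Genes named are the 10 members, Socs3, the naive list, the 5 genes most like each cadherin, and of each wider list the genes called or its 2 brightest; others are marked in the text. The members and lists were chosen with earlier results of these data known. Alternatives covered median centring, quantile normalization, the pseudocount, array brightness, the variance trend, the filter, the set of arrays fitted, all probe sets of a gene, the replicate block and the omission of each array. Those for the correlations of the 8 genes other than Cdh1 and Cdh2, and of the wider lists without the alike pair, were added after the data were seen. Replicate numbers stand for passages, but deviations of same-numbered arrays from their group means correlated between -0.597 and 0.650, so the numbers were not taken to pair the arrays. The main fit therefore has no passage term, and differences and orders inside passages are given as description only.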

Additional observations from a re-analysis of the deposited data

How the results depend on the processing

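No probe set was called by limma in any comparison under any alternative, the replicate block included (0 called in each of the 3). Of 30 differences of the 10 genes between groups, 12 kept their sign under every alternative and 18 did not; none was called, and the cause was not tested. With quantile normalization the difference of no LIF against LIF was -0.193 for Cdh1 and 0.139 for Snai2, and that of donor against no LIF was -0.105 for Snai1. With median centring the no-LIF difference was 0.17 for Snai2, and donor against no LIF was -0.183 for Cdh1, -0.141 for Epcam and -0.128 for Snai1. With brightness as a block it was -0.097 for Cdh1 and 2.215 for Cdh2, the no-LIF difference was -0.673 for Cdh2, and donor against LIF was 0.085 for Vim. Without the alike pair the no-LIF difference was -0.746 for Cdh2, 0.212 for Snai2, 0.402 for Icam1 and 0.128 for Pecam1, donor against no LIF was -0.089 for Snai1, and donor against LIF was 0.012 for Snai2. Without the arrays against Socs3, donor against no LIF was -0.325 for Cdh2, -0.464 for Epcam, 0.066 for Snai2, 0.391 for Zeb1, 0.425 for Icam1 and 0.447 for Pecam1, and donor against LIF was -0.163 for Zeb2. With 1 array left out, no LIF against LIF ranged from -0.156 to 0.246 for Cdh1, -0.888 to 1.291 for Cdh2, -0.152 to 1.117 for Epcam, -0.23 to 0.212 for Snai2, -1.74 to 0.402 for Icam1 and -1.64 to 0.128 for Pecam1. Donor against no LIF ranged from -0.074 to 0.398 for Cdh1, -0.325 to 1.45 for Cdh2, -0.464 to 0.76 for Epcam, -0.086 to 0.521 for Snai1, -0.354 to 0.088 for Snai2, -0.753 to 0.391 for Zeb1, -1.718 to 0.498 for Icam1 and -1.398 to 0.523 for Pecam1. Donor against LIF ranged from -0.349 to 1.83 for Cdh2, -0.633 to 0.233 for Vim, -0.266 to 0.08 for Snai2 and -0.163 to 0.754 for Zeb2.

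The correlation of Cdh1 with the naive mean was -0.548 without the alike pair, and there Vim gave 0.221, Snai1 0.065 and Snai2 -0.056. That of Cdh2 kept its sign and lost its call at -0.761 with median centring, -0.842 without the alike pair, -0.82 on the 6 dimmer arrays and -0.894 with the replicate block (exact permutation p = 0.0139, adjusted 0.171), and ranged from -0.973 to -0.84 with 1 array left out. Within passages only 216 pairings exist, and the smallest exact p is 0.00463, so an adjusted p there is limited by their number. With the block the calls of Pecam1 (0.986), Icam1 (0.957) and Zeb1 (0.932) were lost too, at an adjusted exact p of 0.169 to 0.171. On the 6 dimmer arrays Pecam1 (0.992), Icam1 (0.968) and Zeb1 (0.963) lost theirs as well, at an adjusted exact p of 0.0926, 0.0711 and 0.114. With 6 arrays the smallest exact p is 0.00139, the value that Icam1 had there, so these adjusted p-values are limited by the number of pairings too. Zeb1 also lost its call with quantile normalization (0.828), with median centring (0.901) and without the arrays against Socs3 (0.907). Over all genes 0 were called without the alike pair, on the dimmer arrays, without LIF replicate 1 or with the replicate block (13.7%, 27.6%, 25.5% and 21.4% had an unadjusted exact permutation p under 0.05), 8 without no-LIF replicate 1 or donor replicate 3, and 160 with median centring. Snai1 gave 0.001 with a pseudocount of 16 and 0.231 on the dimmer arrays, and -0.171 to 0.195 with 1 array left out. Zeb2 gave -0.054 with quantile normalization, -0.256 with median centring, -0.137 on the dimmer arrays, -0.021 for all its probe sets and -0.097 to 0.211 with 1 array left out. Signals near the 40th percentile of their arrays, those of Snai2 and Zeb2 and the low arrays of Cdh2, limit what can be read of these genes.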
